A study of Mus musculus with 6 samples.

Results

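GDP-mannose and dolichol-phosphate mannose are the activated forms of mannose from which cells build N-glycans, GPI anchors and O- and C-mannosylated proteins. The 8 genes for making them, Mpi, Pmm1, Pmm2, Gmppa, Gmppb, Dpm1, Dpm2 and Dpm3, were taken by symbol from the 23284 genes listed for each sample, and all 8 were found in every sample. The list was selected on FPKM values (read fragments scaled to exon length and to the depth of the library) of day 10 and day 14 that were already known from these samples. The difference of these genes between the days is therefore a description here, and no test of it is offered as support.

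Osteoblasts (OBs) carrying ECFP had been sorted from *Col2.3*-ECFP mice in which implanted BMP-2 induces ectopic bone, in 3 samples of day 10 and 3 of day 14 after implantation. The methods give mice of 12 to 16 weeks in both groups and 2.5 μg of BMP-2 in the collagen sponge. The *Col2.3* promoter drives the cyan protein ECFP in OBs, so the sort holds the cells in which this fragment of the collagen I promoter is active. Dead cells and cells with the haematopoietic marker CD45 had been excluded by gating in both groups. Bone of day 10 was digested with collagenase 1 time and bone of day 14 2 times, so that digestion and day cannot be told apart. The titles place all of the later samples on day 14, which was used here, whereas their descriptions read day 14, 15 and 16 for replicates 1, 2 and 3. The titles call the samples biological replicates, and whether each came from a different mouse is not given in the sources used here, so that the errors below measure the spread between these samples.

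Mannose enters this route in the cytosol. MPI, phosphomannose isomerase, converts fructose 6-phosphate to mannose 6-phosphate, and PMM1 and PMM2, the phosphomannomutases, move the phosphate to give mannose 1-phosphate. GMPPB, the catalytic subunit of GDP-mannose pyrophosphorylase, joins mannose 1-phosphate to GTP to give GDP-mannose, and GMPPA is its regulatory subunit, which binds the product. The DPM complex at the membrane of the endoplasmic reticulum then transfers mannose to dolichol phosphate. DPM1 is its catalytic subunit, DPM3 tethers DPM1 to the membrane, and DPM2 stabilises the complex. OBs secrete large amounts of glycosylated matrix protein, for which these sugar donors are needed.

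Depth was estimated from the steps between low FPKM values and ran from 4552366 to 7776817 mapped reads per sample, at which 3 reads on 1000 bases correspond to 0.386 to 0.659 FPKM. Each of the 8 genes was above this level in every sample, with an estimated 49 reads or more at the length of its longest annotated transcript. All 7 OB markers were above 0 in every sample, and their summed level ran from 28368 to 54192 FPKM on day 10 and from 15669 to 38269 FPKM on day 14. Most of each sum was Col1a1 and Ibsp. All 7 had lower means on day 14. Sp7 was at 73.7, 51.1 and 40.1 FPKM on day 10, against 9.79, 27.9 and 4.09 FPKM on day 14, without overlap. Dlx5, Runx2, Alpl, Col1a1, Ibsp and Bglap2 overlapped between the days. The sample of day 14 replicate 2 stood apart from the other 2 of its day. Its summed OB markers were at 38269 FPKM against 19619 and 15669 FPKM in replicates 1 and 3. Its Col2a1, the collagen of cartilage, was at 688 FPKM against 12.1 and 8.75 FPKM, and the summed level of 10 chondrocyte markers was 969 FPKM against 62.5 and 61.5 FPKM, with 328 to 566 FPKM on day 10 and Matn1 at 0 in some samples. The sum of 8 myeloid markers was highest in day 14 replicate 3, at 549 FPKM, against 230 and 11.5 FPKM in the other samples of that day and 31.1 to 134 FPKM on day 10, with Lyz2 at 454 FPKM as its highest member. Osteoclast markers summed to 446 to 487 FPKM on day 10 and 627 to 675 FPKM on day 14, most of it Ctsk. The other markers of this list did not all follow. Mmp9 had a higher mean on day 14, with overlap between the days. Acp5, Dcstamp, Ocstamp and Calcr had lower means on day 14, Ocstamp without overlap. Fcer1g, Emr1 and Dcstamp of these lists were at 0 in some samples, as were Emcn and Cldn5 of the endothelial list. Endothelial markers stayed below 5.4 FPKM in sum, with Tek the highest of them, and 6 erythroid and muscle markers summed to 2.71 to 70.8 FPKM, led by Hba-a1.

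Over the 19526 genes with a mean above 0.1 FPKM, the comparison of day 14 with day 10 by limma on log2(FPKM + 0.1) gave 3 genes with an adjusted p (Benjamini-Hochberg) under 0.05, which is 0.0154% of those tested. This count was 5 without day 10 replicate 2, 6 without day 10 replicate 3 or day 14 replicate 1, and 76 without day 14 replicate 2. An unadjusted p under 0.05 was found for 4.4% of genes in the lower and 5.6% in the higher direction. In 6.67% of genes every sample of day 14 lay below every sample of day 10, and in 7.59% every sample of day 14 lay above. The median log2 fold change of all genes was −0.04. By their means 53.5% of all genes tested were lower on day 14, the share to set beside each count by means below. None of the 8 genes passed the adjusted threshold, where their adjusted p from limma ran from 0.272 to 0.994. Their median log2 fold change was −0.21. By their means 5 of the 8 were lower and 3 higher on day 14. In 4 of them, Gmppb, Mpi, Dpm3 and Pmm2, the days did not overlap and day 14 was the lower, and in none was it the higher. An unadjusted p under 0.05 was obtained for 3 of these, all lower. As the list was drawn from this contrast, nothing is read from these shares against the background. In bulk RNA, fewer cells of a type and less RNA per cell cannot be told apart.

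Gmppb had the largest difference between the days among the 8 genes. Its level was 57.4, 37.5 and 40.4 FPKM in day 10 replicates 1, 2 and 3, and 20.1, 22.3 and 23.1 FPKM in day 14 replicates 1, 2 and 3. The lowest sample of day 10 was well above the highest of day 14, and day 10 replicate 1 was high within its day. The means were 45.1 ± 10.8 FPKM (SD, n = 3) on day 10 and 21.8 ± 1.55 FPKM (SD, n = 3) on day 14, a log2 fold change of −1.02 ± 0.19 (SE) on the log2(FPKM + 0.1) scale, or 2.03-fold higher on day 10. The estimate was −0.83 without day 10 replicate 1 and −1.03 without day 14 replicate 2. The latter sample had the highest OB and chondrocyte marker sums of its day. The chondrocyte, myeloid and OB marker sums given above differed among the same samples. The log2 fold changes of the OB markers ran from −2.34 ± 0.59 (SE) for Sp7 to −0.60 ± 0.69 (SE) for Col1a1. The part of these markers in the level of Gmppb was not tested.

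Gmppa, the regulatory partner, did not share this difference. It was at 50.5, 32.6 and 36.7 FPKM on day 10, against 33.3, 36.1 and 31.3 FPKM on day 14. The days overlapped, and day 10 replicate 1 was again the highest sample. Its log2 fold change was −0.23 ± 0.19 (SE). Taken within each sample, the ratio of Gmppb to Gmppa was 1.14, 1.15 and 1.10 on day 10 and 0.605, 0.617 and 0.740 on day 14. The high Gmppb of day 10 replicate 1 thus went with a high Gmppa in the same sample, and the spread of the ratio on day 10 was small (1.13 ± 0.03, SD, n = 3, against 0.654 ± 0.07 on day 14). In FPKM, the catalytic subunit was above its partner in each day 10 sample and below it in each day 14 sample. FPKM depend on the transcript lengths used, which are not given. Which of the 2 had more transcripts therefore cannot be told from ratios this close to 1.

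Mpi, at the entry of the route, was at 11.3, 10.1 and 10.9 FPKM on day 10, against 6.92, 6.20 and 7.12 FPKM on day 14. The days were clearly apart, with little spread within each. The means of 10.8 ± 0.635 and 6.75 ± 0.484 FPKM (SD, n = 3 each) gave a log2 fold change of −0.67 ± 0.17 (SE), or 1.59-fold higher on day 10. Pmm2, the phosphomannomutase whose deficiency underlies the most common congenital disorder of glycosylation in humans, was at 14.59, 15.4 and 15.4 FPKM on day 10, against 13.6, 14.58 and 11.7 FPKM on day 14. Its days were apart only by 14.59 against 14.58 FPKM, and its log2 fold change was −0.19 ± 0.16 (SE). Pmm1, the other phosphomannomutase, was at 11.9, 15.9 and 20.7 FPKM on day 10, against 14.0, 21.2 and 24.6 FPKM on day 14. It was the most variable member within the days (pooled SD of 0.41 on the log2 scale), the days overlapped, and its log2 fold change was 0.30 ± 0.27 (SE). The ratio of Pmm1 to Pmm2 ran from 0.814 to 1.34 on day 10 and from 1.03 to 2.10 on day 14, also with overlap.

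**Figure D1:**
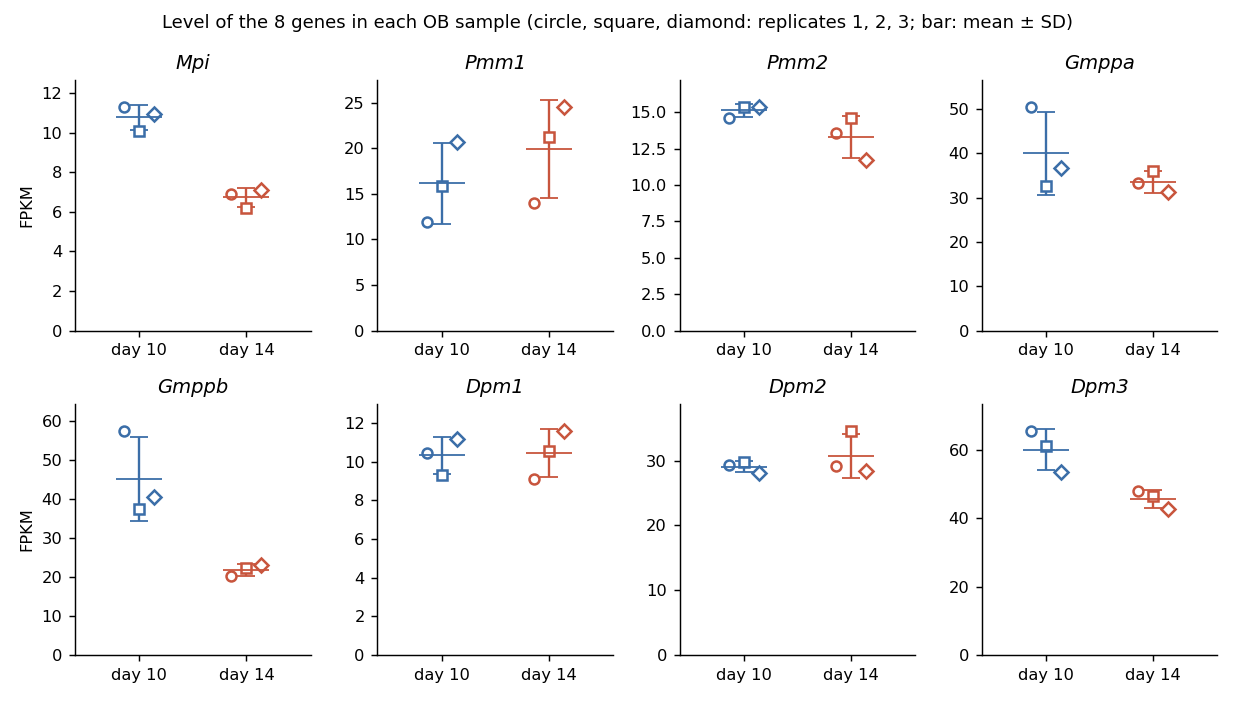
FPKM of the 8 genes (vertical axis, from 0, one scale per gene) in each sample of day 10 (blue) and day 14 (red), with circles, squares and diamonds for replicates 1, 2 and 3 and bars for the mean ± SD of 3 samples. Gmppb at 20.1 to 23.1 FPKM and Mpi at 6.20 to 7.12 FPKM on day 14 lay apart from day 10, whereas Gmppa, Pmm1, Dpm1 and Dpm2 overlapped.

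Within the DPM complex only Dpm3 had days that did not overlap. Dpm3 was at 65.6, 61.2 and 53.7 FPKM on day 10, against 48.0, 46.4 and 42.6 FPKM on day 14, with a log2 fold change of −0.39 ± 0.14 (SE). The gap between the days was 53.7 against 48.0 FPKM. Dpm2 was at 29.4, 29.8 and 28.1 FPKM on day 10, against 29.1, 34.6 and 28.4 FPKM on day 14, and the catalytic Dpm1 was at 10.5, 9.32 and 11.2 FPKM on day 10 and 9.12, 10.6 and 11.6 FPKM on day 14. Both overlapped between the days, with log2 fold changes of 0.07 ± 0.14 and 0.01 ± 0.18 (SE). Neither sign was stable, as without day 14 replicate 2 the log2 fold changes became −0.02 for Dpm2 and −0.002 for Dpm1. The ratio of Dpm3 to Dpm2 was 2.23, 2.06 and 1.91 on day 10 and 1.65, 1.34 and 1.50 on day 14, without overlap.

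By mean FPKM over the 6 samples, which is per length of transcript, Dpm3 came first at 52.9, followed by Gmppa at 36.8, Gmppb at 33.5, Dpm2 at 29.9, Pmm1 at 18.0, Pmm2 at 14.2, Dpm1 at 10.4 and Mpi at 8.76. Of the neighbours in this order, Gmppa and Gmppb kept their order in 3 of 6 samples, Gmppb and Dpm2 in 3, Pmm1 and Pmm2 in 5, and Dpm1 and Mpi in 4, while the other neighbours kept it in all 6. The lowest, Mpi, was above 74.4% and the highest, Dpm3, above 94.2% of the genes tested. Level differences within the enzyme pairs and the complex were compared over the 6 samples with a two-sided exact permutation test that flips the sign of each sample's log2 difference, whose smallest p is 0.03125, and were adjusted over 5 pairs. Dpm3 was 5.02-fold and Dpm2 2.86-fold above the catalytic Dpm1 in FPKM, and Dpm3 was 1.75-fold above Dpm2. Each of these differences held in 6 of 6 samples, with the smallest p the test can give and an adjusted p of 0.0521 in the exact permutation test, which misses 0.05. For Gmppa against Gmppb, with a mean log2 difference of 0.22 ± 0.45 (SD, n = 6), the exact permutation p was 0.281, and for Pmm1 against Pmm2, with 0.30 ± 0.48 (SD, n = 6), it was 0.156 (adjusted 0.281 and 0.195). These p-values do not show that the partners were equal, since Gmppa and Gmppb changed order between the days.

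**Figure D2:**
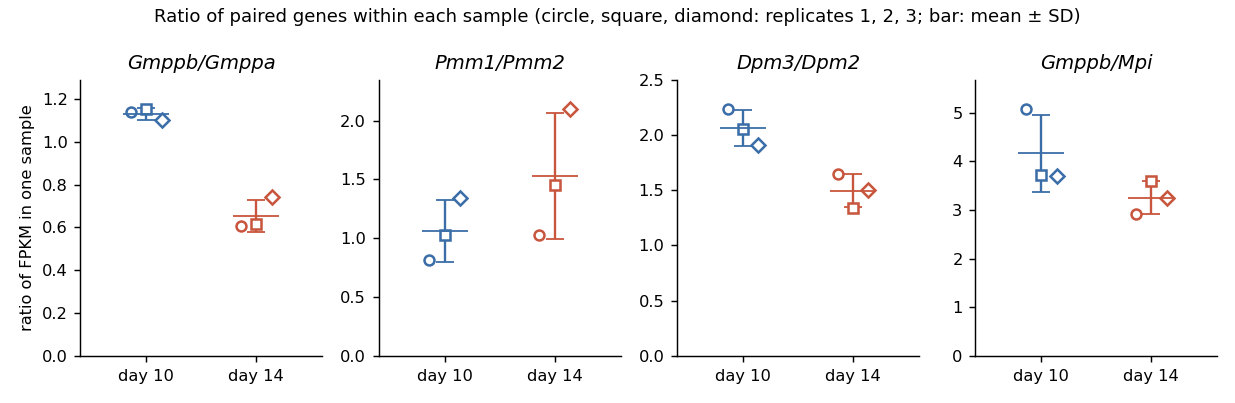
Ratio of the FPKM of paired genes within each sample (vertical axis, from 0) on day 10 (blue) and day 14 (red), with circles, squares and diamonds for replicates 1, 2 and 3 and bars for the mean ± SD of 3 samples. Gmppb over Gmppa lay above 1 on day 10 and below 1 on day 14, at 1.10 to 1.15 and at 0.605 to 0.740, and Pmm1 over Pmm2 overlapped.

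The annotation around Gmppb bears on how its level can be read. In GENCODE vM21 on mm10, Gmppb lies on the plus strand at chr9:108049242-108052801, and 937 of its exonic bases (33.6%) are also exonic in Rnf123, a ubiquitin ligase gene on the opposite strand. Of 2994 stretches of 75 bases in its transcripts, the read length used, 716 were shared with Rnf123. The shared bases are all outside the coding sequence of Gmppb. They make up 169 of the 1429 bases of the transcript Gmppb-201 and 937 of the 2702 bases of Gmppb-202, which has a longer last exon. The library preparation is not stated to keep the strand, so reads of the shared stretch cannot be told apart. Rnf123 itself was at 3.52, 4.26 and 3.25 FPKM on day 10, against 3.96, 4.02 and 4.08 FPKM on day 14. These levels are low beside those of Gmppb, overlapped between the days, and had a log2 fold change of 0.13 ± 0.22 (SE).

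Amigo3, a gene of the AMIGO family of adhesion molecules chosen here after its values were seen, begins 357 bases past the end of Gmppb on the same strand. It was at 10.8, 5.21 and 5.71 FPKM on day 10, against 3.09, 3.68 and 4.30 FPKM on day 14, with a log2 fold change of −0.89 ± 0.31 (SE) and an adjusted p from limma of 0.400. Like Gmppb, it was highest in day 10 replicate 1 and lower in each sample of day 14 than in each of day 10. Whether the values of these neighbours come from separate transcripts was not tested.

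**Figure D3:**
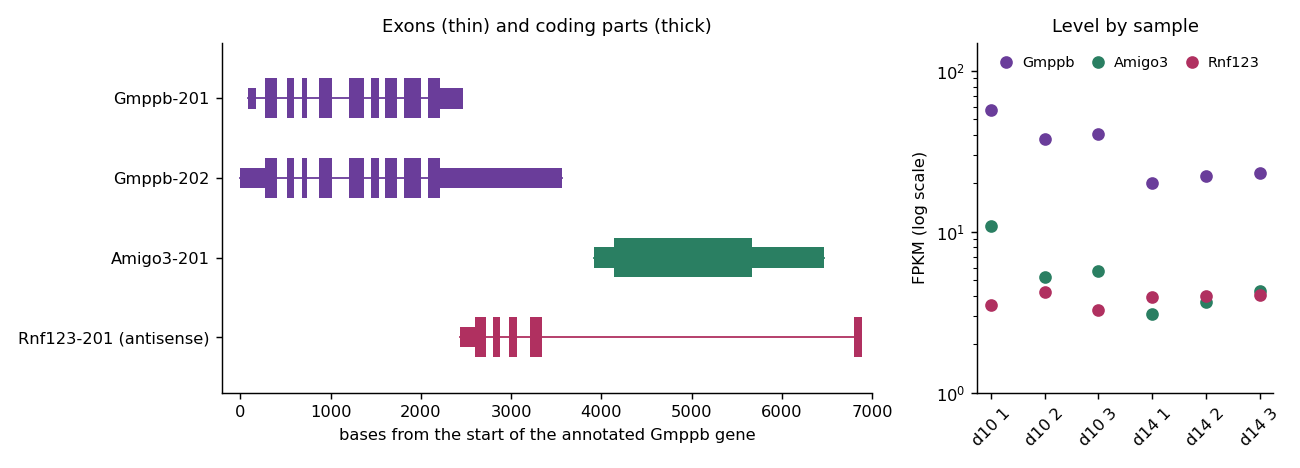
Left, annotated exons (thin boxes) and coding parts (thick boxes) around Gmppb by distance in bases from the start of the gene, with 2 Gmppb transcripts and Amigo3 on one strand and the end of Rnf123 on the other (it continues to the right). Right, FPKM on a log axis in each sample, where Gmppb was at 37.5 to 57.4 on day 10 and at 20.1 to 23.1 on day 14 and Rnf123 stayed between 3.25 and 4.26.

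Among the other members, Dpm1 (chr2:168209048-168230591, minus strand) shares 895 exonic bases with Gm20716, a gene model on the same strand that is not among the genes listed, so their reads could be split or joined. Pmm2 (chr16:8637674-8662467, plus strand) shares 39 exonic bases with Tmem186 on the opposite strand, which was at 1.77 to 3.74 FPKM. Gmppb also shares 111 exonic bases with the transcript model Gm20529, not among the genes listed either. Gmppa (chr1:75435930-75443179, plus strand), Pmm1 (chr15:81951108-81960930, minus strand), Mpi (chr9:57544256-57552763, minus strand), Dpm2 (chr2:32570858-32573579, plus strand) and Dpm3 (chr3:89259358-89267079, plus strand) shared no stretch of 75 bases with another annotated gene. Gmppb and Mpi are thus on the same chromosome, far from each other.

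The RefSeq promoter windows of GRCm38.p6, from 250 bases before to 50 bases after the start, held an entry for 7 of the 8 genes, the exception being Gmppb. All words of 12 letters with 1 free letter were listed in them on both strands, and no word was found in more than 4 of the 7. There were 2 such words, ACTACANTTCCC and AACTACANTTCC, which overlap in all but 1 letter and occurred in the same 4 genes, Gmppa, Pmm2, Mpi and Dpm2. The stretches of 30 bases are shown because no word of this length was shared by more of these promoters. Capitals mark the match to ACTACANTTCCC, which in Pmm2 is read on the opposite strand as GGGAANTGTAGT.
Gmppa: gttttcaaaACTACAATTCCCagcagcccc
Mpi: gctctgcaaACTACATTTCCCgtgaagctc
Dpm2: cctgcagaaACTACATTTCCCgacatgcac
Pmm2: ctatggcttGGGAACTGTAGTtcaaatttt

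These stretches lie at chr1:75435891-75435920 (plus strand), chr9:57552790-57552819 (minus strand), chr2:32570753-32570782 (plus strand) and chr16:8637604-8637633 (plus strand), and the matches begin 36, 58, 96 and 94 bases before the start of Gmppa, Mpi, Dpm2 and Pmm2. The word was in 0.947% of all 32851 windows. It was picked because the members share it, so its frequency among them has no test. It was in 0 of the windows of 50 other genes of the mannose pathway. Of the 4 members with the word, Mpi and Pmm2 were lower in every sample of day 14, Pmm2 only narrowly, and Gmppa and Dpm2 overlapped between the days. Over all 241 tested genes with the word the median log2 fold change was −0.07, against −0.05 over all tested genes with a window. Every sample of day 14 was below every sample of day 10 in 11.2% of the genes with the word and 6.83% of those with a window, and above in 4.98% and 7.54%, which was not tested. A match describes these letters only, and nothing about a factor is read from it.

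Of the 64 other genes of the mannose pathway that were listed, 35 had lower and 29 higher means on day 14. These lists, too, were chosen with earlier results of these data known. Their shares here and below are set beside those of all genes as a description only. Over all genes tested, 53.5% had lower means. The median log2 fold change of the 64 genes was −0.12. None passed the adjusted threshold in limma (smallest adjusted p 0.319). An unadjusted p under 0.05 was obtained for 5 in the lower (7.81%, against 4.4% of all genes) and 6 in the higher direction (9.38%, against 5.6%). In 12 the days were apart with day 14 lower (18.8%, against 6.67%) and in 5 with day 14 higher (7.81%, against 7.59%). The counts at an unadjusted p under 0.05 rested on single samples. They were 3 lower and 2 higher without day 10 replicate 1, and the same without day 14 replicate 1. Without day 10 replicate 3 there were 2 lower, without day 14 replicate 2 8 lower, and without day 14 replicate 3 3 higher.

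Upstream of Mpi, the 3 genes for fructose 6-phosphate supply all had higher means on day 14. Hk2, an inducible hexokinase, was at 17.0, 18.4 and 25.4 FPKM on day 10, against 32.9, 34.3 and 29.2 FPKM on day 14, without overlap, a log2 fold change of 0.68 ± 0.19 (SE). Gpi1, glucose-6-phosphate isomerase and the most abundant of the 3 at a mean of 35.2 FPKM, had 0.32 ± 0.17 (SE) with overlap. Hk1 had 0.08 ± 0.22 (SE) with overlap, and its highest sample was of day 10. Of these supply genes only Hk2 thus had days apart, in the direction opposite to that of Mpi.

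Among the genes for making GDP-fucose from GDP-mannose, for salvaging fucose and for transporting GDP-fucose, 3 of 5 were lower by their means. Gmds, the GDP-mannose dehydratase that draws directly on the product of GMPPB, was at 15.8, 15.3 and 14.9 FPKM on day 10, against 17.0, 19.9 and 16.0 FPKM on day 14, narrowly without overlap and with a log2 fold change of 0.19 ± 0.15 (SE). Fuk, the kinase that salvages free fucose, was at 1.86, 1.90 and 2.16 FPKM on day 10, against 0.663, 1.35 and 0.429 FPKM on day 14, with −1.31 ± 0.45 (SE). Its values were low on both days, and the highest of day 14 was in replicate 2.

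Dolichol supply, which provides the lipid acceptor of the DPM complex, had 3 of 5 genes lower. Dolk, the dolichol kinase that makes dolichol phosphate, was at 14.4, 16.3 and 13.8 FPKM on day 10, against 7.75, 10.8 and 10.6 FPKM on day 14. Its days were apart, with a log2 fold change of −0.61 ± 0.19 (SE), close in size to that of Mpi. Srd5a3, the polyprenol reductase and the most abundant of this list at a mean of 13.9 FPKM, had 0.24 ± 0.20 (SE).

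Of the 7 genes that assemble the lipid-linked oligosaccharide on the cytosolic face, partly from GDP-mannose, 4 were lower by their means and none had days apart. Alg1, which adds the first mannose, was at 27.1, 21.1 and 26.2 FPKM on day 10, against 15.2, 18.4 and 21.4 FPKM on day 14, with −0.44 ± 0.18 (SE) and overlap between the days. Alg14, the most abundant at a mean of 23.0 FPKM, had −0.26 ± 0.19 (SE). Of the 18 genes that use dolichol-phosphate mannose in the lumen, 12 had lower means, 3 had days apart with day 14 lower (16.7%, against 6.67% of all genes) and 0 with day 14 higher (0%, against 7.59%). Among the 4 N-glycan genes, Mpdu1, needed for the use of dolichol-linked sugars, had both the highest level (mean 21.6 FPKM) and the largest difference (−0.36 ± 0.18, SE). Among the 5 GPI anchor genes, Pigx was the most abundant (23.7 FPKM) and Pigb had the largest difference among those of at least 1 FPKM (−0.31 ± 0.33, SE), while Pigz was at 0 in some samples.

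Among these 18 lumenal genes an unadjusted p under 0.05 in limma was obtained for 2 in the lower direction (11.1%, against 4.4% of all genes). In the higher direction there were 0 (0%, against 5.6%). Both of the 2 were O-mannosyltransferases. Tmtc2, which acts on cadherins, was at 6.83, 4.62 and 3.90 FPKM on day 10, against 1.16, 3.11 and 1.16 FPKM on day 14, with −1.56 ± 0.42 (SE). Its highest sample of day 14 was replicate 2, which also had the highest OB and chondrocyte marker sums of that day, and their part in the difference was not tested. Pomt2, which acts on dystroglycan together with POMT1, was at 8.50, 7.45 and 7.77 FPKM on day 10, against 5.65, 6.88 and 4.57 FPKM on day 14, with −0.48 ± 0.21 (SE). Dpy19l1, a C-mannosyltransferase, was the most abundant at a mean of 23.6 FPKM and had −0.20 ± 0.14 (SE). The 4 genes of the dolichol-glucose branch all overlapped between the days, and Alg5, which makes dolichol-phosphate glucose, was first in level at 50.02 FPKM and in difference at −0.21 ± 0.15 (SE).

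The oligosaccharyltransferase, which moves the finished glycan onto proteins, was the most abundant group, with means of 13.2 to 368 FPKM. Lower means on day 14 were found for 11 of its 12 subunit genes, and in 7 the days did not overlap (58.3% against 6.67% of all genes), but none had an unadjusted p under 0.05 and the median log2 fold change was −0.27. Dad1 was at 459, 373 and 383 FPKM on day 10, against 298, 363 and 333 FPKM on day 14. Tmem258, listed as 1810006K21Rik, had the largest difference at −0.42 ± 0.18 (SE), with 470, 358 and 410 FPKM on day 10 and 276, 336 and 313 FPKM on day 14. In both, day 10 replicate 1 was the highest and day 14 replicate 1 the lowest sample, as it was for Gmppb.

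The mannosidases that trim or recover mannose, for which the trimming and salvage lists were joined, lay on the other side. As these lists were chosen with earlier results known, nothing is read from their shares against the background. All 10 had higher means on day 14, 5 of them with an unadjusted p under 0.05 (50%, against 5.6% of all genes) and 3 without overlap of the days (30%, against 7.59%), and their median log2 fold change was 0.39. All 10 stayed higher by their means in each alternative setting, although some settings, such as the filter on low values, cannot change these differences. The 5 became 0 without the mean-variance trend of limma and 1 without day 10 replicate 1 or day 14 replicate 1. They became 2 without day 14 replicate 3 and 3 without day 10 replicate 2 or with equal FPKM sums. Manba, the lysosomal beta-mannosidase, was at 14.0, 15.6 and 15.7 FPKM on day 10, against 20.8, 19.3 and 26.4 FPKM on day 14, with 0.54 ± 0.17 (SE). Man2a2, a Golgi mannosidase, was at 10.5, 13.5 and 14.0 FPKM on day 10, against 19.4, 18.0 and 15.6 FPKM on day 14, with 0.48 ± 0.18 (SE), and neither gene had overlap between the days. Man2b2, a lysosomal mannosidase, was the most abundant at a mean of 42.5 FPKM and had 0.21 ± 0.17 (SE).

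Man1a, Man1c1 and Man2a1, the remaining Golgi enzymes with an unadjusted p under 0.05, had log2 fold changes of 0.74 ± 0.30, 0.72 ± 0.28 and 0.77 ± 0.32 (SE), and all overlapped between the days. Man1a was at 15.5, 18.9 and 22.7 FPKM on day 10, against 28.6, 21.8 and 49.7 FPKM on day 14. Each of the 3 was highest in day 14 replicate 3, then replicate 1, then replicate 2. The summed myeloid markers of 549, 230 and 11.5 FPKM had the same order. Manba, at 26.4, 20.8 and 19.3 FPKM in these samples, Man1a2 and Man2b1 had this order too. Man1b1, Man2a2, Man2b2 and Man2c1 did not. The part of the myeloid markers in these values was not tested.

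**Figure D4:**
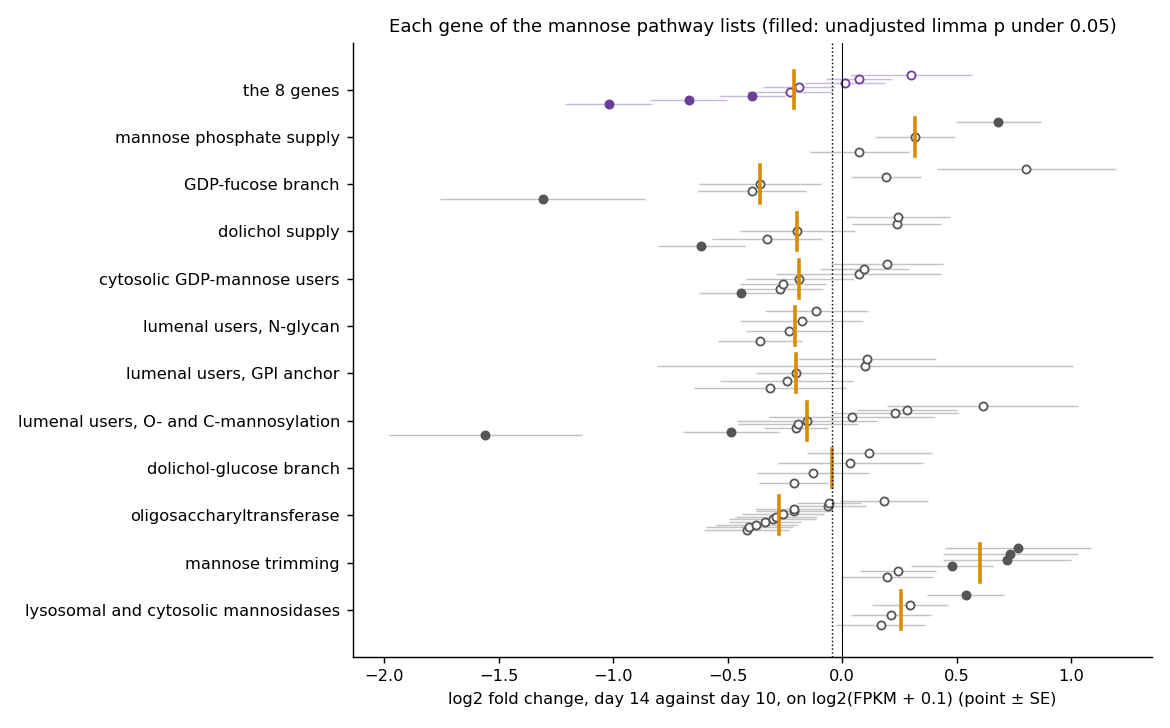
Log2 fold change of day 14 against day 10 on log2(FPKM + 0.1) for each gene (horizontal axis, point ± SE) in the 8 genes (purple) and the 11 other lists (grey), with filled points for an unadjusted limma p under 0.05, orange bars for each list's median and a dotted line for the median of all genes (−0.04). Points of the oligosaccharyltransferase list sit around −0.27 and those of the mannosidases to the right of 0.

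The profile of each member over the 6 samples was compared as the root mean square (RMS) difference of centred log2(FPKM + 0.1). The closest members were Pmm2 and Dpm2 (0.147) and the farthest were Gmppb and Pmm1 (0.791). Gmppb was nearest to Mpi (0.247) among the members, whereas it was 0.407 from its own partner Gmppa. Among 11161 genes of at least 1 FPKM, the 5 nearest to Gmppb were Cenpo (0.106), Nhsl1 (0.125), Poc1a (0.127), Suv420h2 (0.147) and Fbxl16 (0.151), all at means of 1.33 to 4.90 FPKM, far below that of Gmppb. The mean profile of the 8 genes was nearest to Armcx1 (0.025), Rab4b (0.035), Golga5 (0.037), Idh3g (0.039) and Gnb2 (0.040). Such distances describe 6 points and share the samples, and nothing about function or control is read from them.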

How the data were processed

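FPKM values of ECFP+ OBs from *Col2.3*-ECFP mice were analysed for day 10 (n = 3) and day 14 (n = 3). The authors used single-end reads of 75 bases, aligned them on mm10 by TopHat2 2.0.13, Bowtie2 2.2.3 and SAMtools 0.1.19 and deposited FPKM per gene from Cufflinks 2.2.1. The annotation used, the handling of shared reads and the library strand are not given in the sources used here. In 1 sample, 25 symbols stored as dates were restored by position. Genes with a mean above 0.1 FPKM were compared by limma 3.58.1 (R 4.3.3) on log2(FPKM + 0.1), with a mean-variance trend and day as the only factor, and p-values were adjusted by Benjamini-Hochberg over 19526 genes. The fit was also run on simulated data with shifts larger than any difference of the members, which does not bear on differences of their size. Fold changes on this scale understate those of low genes.

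Level differences within pairs used a two-sided exact permutation test. Depth was estimated from 1977 genes with 1 annotated transcript, of whose low values 74.7% to 79.5% came out within 0.1 of a whole read. Overlaps were computed from GENCODE vM21, in which 20911 symbols matched, and promoters are from RefSeq. Named genes were the 8 members, pathway genes with an unadjusted p under 0.05 or the highest level or largest difference of their list (at least 1 FPKM), nearest profiles, overlapping genes and leading markers. The members and lists were chosen with earlier results of these data known. Alternatives were another pseudocount, filter, scaling or variance model, a replicate block, and leaving out each sample.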

Additional observations from a re-analysis of the deposited data

How the results depend on the processing

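Of 208 values recomputed under 14 alternative settings, 195 moved by less than the spread between replicates, or by less than 1.5 times for counts. Some of these were fixed in advance. The filters on low values, the replicate block and the variance model cannot change a member's log2 fold change or the members' median. The log2 fold change of Gmppb ran from −1.14 to −0.83 over all settings, and when 1 sample was left out its adjusted p in limma ran from 0.0995, without day 14 replicate 2, to 0.855, without day 10 replicate 1. Gmppb, Mpi, Dpm3, Pmm2 and Gmppa stayed lower and Pmm1 higher in all settings. Dpm1 changed sign in 4 settings and Dpm2 in 1. The median log2 fold change of the 8 genes stayed between −0.27 and −0.13. No member and no other pathway gene reached an adjusted p under 0.05 in any setting.

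Over all genes, the number with an adjusted p under 0.05 in limma was 3, and between 3 and 76 when 1 sample was left out. The 76 were found without day 14 replicate 2, whose OB and chondrocyte marker sums were the highest of its day, and the cause was not tested. The counts of pathway genes with an unadjusted p under 0.05, 5 lower and 6 higher, were 3 and 1 without the mean-variance trend. When 1 sample was left out they ran from 2 to 8 lower and from 2 to 7 higher. A day was then left with 2 samples and its spread was pooled with the other day.

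A limma fit with the replicate number as block gave 2 genes with an adjusted p under 0.05. At an unadjusted p under 0.05 it gave 4 pathway genes lower and 7 higher. The log2 fold change of Gmppb was −1.02 by construction, because every replicate number occurs on both days and the block cannot move it. Deviations of same-numbered samples correlated at r = 0.058, −0.00584 and 0.0887 across genes, and day 14 replicate 2 did not correlate best with its own number, so the number was not taken as a pairing. The differences of Dpm1 and Pmm2 between the days were 0.01 ± 0.18 and −0.19 ± 0.16 (SE, log2). At the length of the longest annotated transcript they rested on an estimated 133 reads or more in each sample. Shorter transcripts would give fewer reads, and what depth limits here was not tested.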
